A study of Mus musculus with 33 samples.

Results

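CD127hi Tregs of the spleen were compared with CD127-/lo Tregs of the same organ in mice that tolerated a porcine islet xenograft. The comparison used 6 of the 33 bulk RNA-Seq libraries of the series, 3 labelled SP/CD127highTregs and 3 labelled SP/CD127-Tregs, which were taken by their labels alone, and covered all 31054 features counted. Both fractions came from the C57BL/6 strain DEREG, in which a transgene driven by the promoter of Foxp3 encodes EGFP together with the receptor for diphtheria toxin. The recipients had been given 4000 IEQ of porcine neonatal islet cell clusters (NICC) under the renal capsule, several intraperitoneal doses of 500 µg MR-1, an antibody against CD154, and 1 dose of 500 µg CTLA4-Fc, which blocks the CD28 ligands, so that the animals of both fractions were transplanted and treated alike. At day 100, CD4+GFP+ cells within a gate for live single lymphocytes were sorted into CD127hi and CD127-/lo cells, so that EGFP stood for Foxp3 in the sort. According to the methods a library was made from a pool of mice, and the same set of tolerant recipients supplied the subsets. Libraries of different fractions and organs may therefore share animals, and nothing in the labels ties the replicate numbers of the fractions to each other. The p-values set the difference between these 3 libraries and 3 against a spread between libraries. That spread was estimated within the 11 groups of all 33 libraries, not from the 6 compared libraries alone. For reference, levels are given in 3 libraries each of Tregs of naive mice without transplant (SP/naive), graft Tregs, and CD4+Foxp3- and CD45+CD4- spleen cells of tolerant mice, and the same sort was examined in the kidney lymph node (DLN) with 3 libraries per fraction.

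Tregs restrain immune responses under the control of the transcription factor Foxp3, and they depend on IL-2, which they bind through CD25. CD127, encoded by Il7r, is the α chain of the IL-7 receptor and pairs with the common γ chain to signal through JAK1, JAK3 and STAT5. Naive and memory T cells use IL-7 to survive, while most Tregs keep CD127 low, partly because Foxp3 represses Il7r. Tregs with high CD127 have been described among memory-like and tissue Tregs.

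Values are given as CPM, the count of a gene relative to all read pairs on genes of its library, scaled by the TMM method, for replicates 1, 2 and 3 in this order. The 6 libraries held from 3312714 to 4615283 counted read pairs, and 3 counts, the limit that a count of 0 allows, stood for between 0.650 and 0.906 CPM, which covers counting error only. Among the 25347 genes tested, 13033 were above this limit in at least 1 fraction. The fractions differed in library properties that do not come from single genes. The share of read pairs that mapped outside genes was 13.2%, 24.9% and 25.1% in the CD127-/lo libraries and 29.1%, 33.5% and 28.8% in the CD127hi libraries, and between 12527 and 13836 genes were detected in the former and between 14475 and 16628 in the latter, without overlap in either measure. CD127-/lo replicate 1 stood apart with the lowest share outside genes and the highest share on several places of the genome, 14.1% against 9.52% to 10.9% in the other 5 libraries. Taken over the 500 genes that differed most within a pair (root mean square), libraries of the same fraction lay 4.11 to 5.20 log2 units apart and libraries of different fractions 4.37 to 5.34, so that the 2 ranges overlapped.

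The sort could be read from the RNA. Foxp3 (ENSMUSG00000039521, chromosome X from 7573644 to 7595245) had 464, 425 and 574 CPM in CD127hi and 394, 342 and 323 CPM in CD127-/lo Tregs. Every CD127hi library lay above every CD127-/lo library, but the difference did not pass the test (log2 fold change 0.47, standard error 0.55, adjusted p = 0.872, quasi-likelihood test of edgeR, Benjamini-Hochberg adjusted). In CD4+Foxp3- cells of tolerant mice its mean was 2.37 CPM and in CD45+CD4- cells 0.501 CPM. EGFP, the reporter of the sort, had 127, 75.6 and 149 CPM in CD127hi and 96.6, 67.7 and 48.7 CPM in CD127-/lo Tregs, with overlapping fractions, and was at 0 in the CD4+Foxp3- libraries. Of the other markers of the label, Il2ra (CD25) had between 319 and 443 CPM in CD127hi and between 390.02 and 609 CPM in CD127-/lo Tregs, Ctla4 between 503 and 805 against between 846 and 1115 CPM, and Ikzf2 (Helios) between 4135 and 5725 against between 4073 and 10457 CPM. Hence both fractions held the defining transcripts of Tregs.

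Il7r (ENSMUSG00000003882, chromosome 15 from 9505788 to 9530176), the transcript of the receptor chain by which the cells were sorted, had 1236, 1082 and 1198 CPM in CD127hi and 269.5, 303 and 359.7 CPM in CD127-/lo Tregs. The 3 CD127hi libraries lay close together and far above the 3 CD127-/lo libraries, and the log2 fold change was 1.92 (standard error 0.37, adjusted p = 0.00163). Since CD127 defined the fractions, this is a check of the sort and not a finding. SP/naive Tregs lay between the fractions with 543 ± 108 CPM (SD, n = 3), without overlap with either. Graft Tregs had 866 ± 259.7 CPM and CD4+Foxp3- cells 1111 ± 237 CPM, and the ranges of both groups overlapped that of CD127hi Tregs. CD45+CD4- cells, with 393 ± 53.9 CPM, lay closest to CD127-/lo Tregs. Leaving out each library in turn kept the log2 fold change of Il7r between 1.82 and 2.03, with the highest adjusted p, 0.0428, without CD127-/lo replicate 1. The adjusted p was 0.296 with the likelihood ratio test, 0.248 with a stricter filter on low counts and 0.0532 with the share of read pairs outside genes as a covariate.

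Beyond Il7r, few genes passed the test. In all, 23 genes were called (DEGs, adjusted p under 0.05, quasi-likelihood test of edgeR, Benjamini-Hochberg adjusted), 15 higher in CD127hi Tregs (0.0592% of the 25347 genes tested) and 8 lower (0.0316%), while 1708 genes had an unadjusted p under 0.05. The genes called higher encoded, besides CD127, parts of MHC class II antigen presentation (H2-Ab1, H2-Aa, Ctsh), proteins known from B cells and other antigen-presenting cells (Ms4a1, Cr2, Iglc2, Siglecg, Ly86, Mef2c), the serpin Serpinb1a, the receptors Cxcr6 and Klrd1 and the long noncoding RNAs Malat1 and Gm19951. The genes called lower encoded the CD3 chains Cd3d and Cd3g, the adhesion receptor Cd2, the proteins Arhgdib, Pfn1 and Ftl1, the DNA polymerase subunit Pole3 and the long noncoding RNA Ifngas1. Of the 15 higher genes, 6 had no read in any CD127-/lo library, 3 had 1 to 3 read pairs there in all, and 7 had no read in at least 1 CD127hi library. Only 6 of the 15 had fractions that did not overlap (Il7r, Malat1, Ctsh, Mef2c, Ly86 and Serpinb1a), against 8 of the 8 lower genes. For comparison, the CD127hi libraries lay above all CD127-/lo libraries for 6.07% of all genes tested and below for 4.53%, and for 10.9% and 10.7% of the 8292 genes with a mean of at least 10 CPM. Without CD127-/lo replicate 1 there were 14 DEGs, 13 higher and 1 lower, and with only the 24 spleen and graft libraries in the model there were 6, all among the 23. With the 6 compared libraries alone there were 27, of which 6 were higher, 21 lower and 7 among the 23, and when 10 counts were required in 3 or more libraries there was none, with 960 genes at an unadjusted p under 0.05. Of the 23 genes, Cxcr6, Gm19951, H2-Ab1, Ifngas1, Ly86, Mef2c, Ms4a1, Pole3 and Serpinb1a stayed called by the likelihood ratio test and Ctsh, Cxcr6, Gm19951, H2-Ab1, Ifngas1, Il7r, Ms4a1, Pole3, Serpinb1a and Siglecg by DESeq2. With the compared libraries these were Cd2, Cd3d, Cd3g, Il7r, Pfn1, Pole3 and Serpinb1a, and with the spleen and graft libraries H2-Ab1, Ifngas1, Il7r, Mef2c, Pole3 and Serpinb1a.

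**Figure D1:**
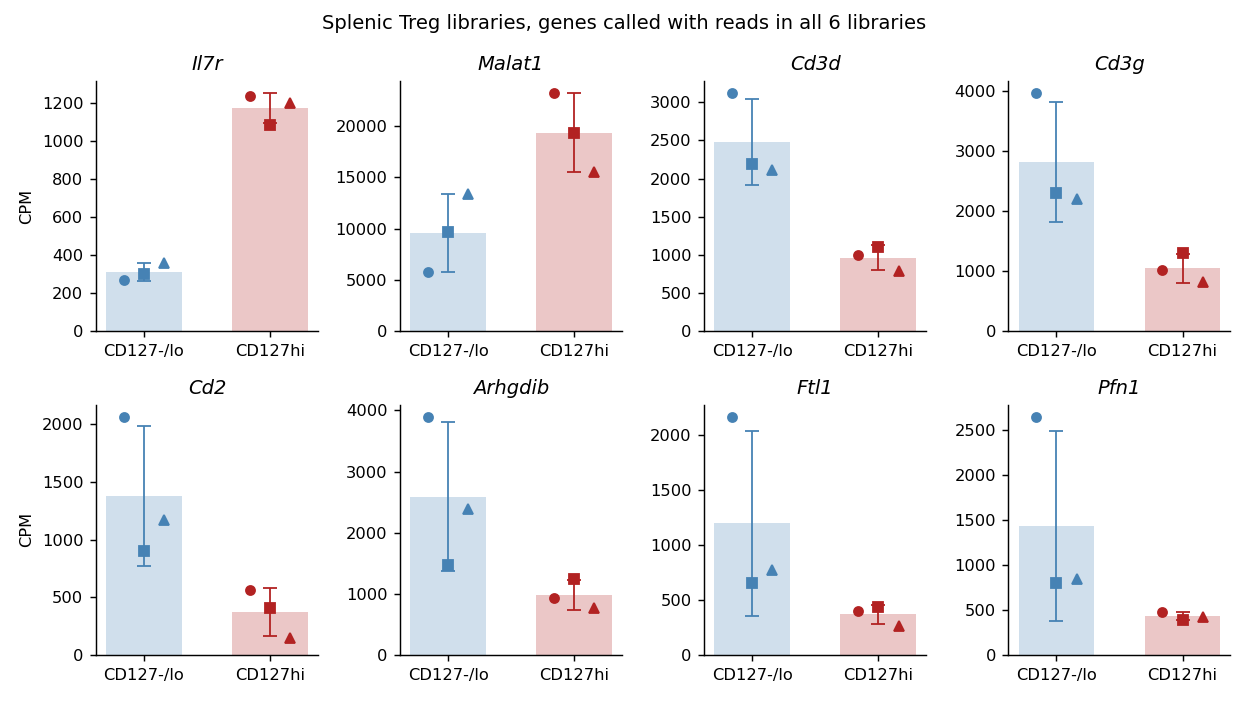
CPM (y axis, linear, from 0) of the 8 called genes with reads in all 6 libraries, in CD127-/lo (blue) and CD127hi (red) splenic Tregs, with bars for the mean, whiskers for the SD (n = 3) and circle, square and triangle for replicates 1, 2 and 3. Il7r and Malat1 sit higher in CD127hi Tregs and the other 6 genes lower, and CD127-/lo replicate 1 (blue circle) is the highest library for each of those 6.

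MHC class II molecules present peptides to CD4+ T cells and are made by B cells, macrophages and dendritic cells under the control of the transactivator Ciita. Mouse T cells make little of them. H2-Ab1 (ENSMUSG00000073421, chromosome 17 from 34257689 to 34269419), the β chain of I-A, had 52.9, 0 and 29.5 CPM in CD127hi Tregs and no read in CD127-/lo Tregs, at least 33.2-fold higher (adjusted p = 1.48e-09). Reads came from CD127hi replicates 1 and 3 alone. This bound, like the others below, sets the mean of one fraction against the counting limit of the other and does not cover the spread between libraries. H2-Aa (ENSMUSG00000036594, chromosome 17 from 34282744 to 34287823), the α chain of I-A, had 94.9, 6.73 and 24.3 CPM in CD127hi and 1.13, 7.297 and 0 CPM in CD127-/lo Tregs (log2 fold change 3.86, standard error 0.72, adjusted p = 0.000781). Here CD127hi replicate 2 lay below CD127-/lo replicate 2, so the fractions overlapped. The log2 fold change of H2-Aa lay between 2.43 and 6.10 with a library left out, lowest without CD127hi replicate 1 and highest without CD127-/lo replicate 2, and the call was lost with the likelihood ratio test (adjusted p = 0.338), DESeq2 (adjusted p = 0.325), the stricter filter (adjusted p = 0.606), the compared libraries alone (adjusted p = 0.211), the spleen and graft libraries (adjusted p = 0.193) and the covariate (adjusted p = 0.628). That of H2-Ab1 was lost with the stricter filter (adjusted p = 0.501) and the compared libraries alone (adjusted p = 0.0619). The β chain of I-E, H2-Eb1, had 21.9, 3.98 and 5.21 CPM in CD127hi and 0, 0 and 4.98 CPM in CD127-/lo Tregs, with the CD127hi libraries in the same order and an overlap with CD127-/lo replicate 3, and did not pass the test (log2 fold change 2.65, adjusted p = 0.353), though it did without CD127-/lo replicate 3 (log2 fold change 7.92, adjusted p = 0.000166). Ctsh (ENSMUSG00000032359, chromosome 9 from 90054152 to 90076089), the lysosomal protease cathepsin H, had 8.92, 13.5 and 30.4 CPM in CD127hi and 1.13, 0.252 and 0 CPM in CD127-/lo Tregs (log2 fold change 5.13, standard error 1.19, adjusted p = 0.0320), with each CD127hi library above each CD127-/lo library. Its call was lost without any single CD127-/lo library or without CD127hi replicate 3, with adjusted p from 0.0644 to 0.393.

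The other members of the presentation list gave another picture. Of its 12 genes, 3 were called higher and none lower (0.0592% and 0.0316% of all genes tested), and the median log2 fold change was -0.18, against 0.03 over all genes tested. Without CD127-/lo replicate 1 the median was 0.66 and 2 genes were called. The invariant chain Cd74, which accompanies class II molecules to the endosome, had 153, 178 and 127 CPM in CD127hi and 332, 104 and 153 CPM in CD127-/lo Tregs (adjusted p = 0.808), so that it was read in every library and the fractions overlapped. Ctss, the protease that degrades the invariant chain, had 549, 359 and 281 CPM in CD127hi and 1032, 763 and 615 CPM in CD127-/lo Tregs, each CD127hi library below each CD127-/lo library, without passing the test (log2 fold change -1.02, adjusted p = 0.500). H2-DMa and H2-Ob, which load peptides onto class II and restrain this step, had log2 fold changes of -1.14 and -0.01 (adjusted p = 0.778 and 1). Ciita, named after its values were seen, lay between 0.252 and 2.03 CPM in all 6 libraries. In CD45+CD4- spleen cells, H2-Ab1 had 1556 ± 266 CPM and H2-Aa 2238 ± 340.4 CPM (SD, n = 3), and in CD4+Foxp3- cells 48.7 ± 23.8 CPM and 69.7 ± 15.3 CPM.

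Class II promoters share a module in which the Y box holds the letters CCAAT on either strand. The 200 bases before the RefSeq start of the α chain of I-A and the β chain of I-E (GRCm38.p6) are shown because these genes carry the module and had their highest values in the same CD127hi library. Capitals mark CCAAT or its reverse complement ATTGG.
H2-Aa, chr17:34287824-34288023, minus strand: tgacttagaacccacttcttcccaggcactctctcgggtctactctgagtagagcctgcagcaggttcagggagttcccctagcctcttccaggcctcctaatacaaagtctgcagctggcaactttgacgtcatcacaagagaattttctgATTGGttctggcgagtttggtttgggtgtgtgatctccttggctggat
H2-Eb1, chr17:34305667-34305866, plus strand: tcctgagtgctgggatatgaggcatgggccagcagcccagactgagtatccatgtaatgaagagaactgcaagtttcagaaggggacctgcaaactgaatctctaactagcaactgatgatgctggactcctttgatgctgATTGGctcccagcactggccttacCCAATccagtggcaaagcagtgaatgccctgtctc
The match in H2-Aa began 48 bases before the start, and those in H2-Eb1 59 and 35 bases before it. Of 32851 promoters of the same length, 9641 (29.3%) hold these letters on at least 1 strand, so a match is a description and not evidence of a bound site. Promoter sequences were matched for 16 of the 23 called genes.

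The genes known from B cells and antigen-presenting cells were called at low levels. Ms4a1 (ENSMUSG00000024673, chromosome 19 from 11249675 to 11266241), which encodes CD20, had 64.1, 0 and 11.0004 CPM in CD127hi and 0, 0.252 and 0 CPM in CD127-/lo Tregs, the latter from a single read pair, a ratio of 325 (95% counting interval 57.9 to 12870.2) (adjusted p = 2.57e-08). CD127hi replicate 1 carried most of these reads and replicate 2 none. Cr2 (ENSMUSG00000026616, chromosome 1 from 195136811 to 195176716), the complement receptor CD21, had 20.4, 0 and 29.5 CPM in CD127hi and 1.98, 1.01 and 0 CPM in CD127-/lo Tregs (log2 fold change 4.00, standard error 0.88, adjusted p = 0.0131). Its reads also came from CD127hi replicates 1 and 3, and its call was lost without CD127-/lo replicate 3 (adjusted p = 0.176). Iglc2 (ENSMUSG00000076937, chromosome 16 from 19198396 to 19200351), an immunoglobulin λ constant region with a near-identical neighbour in Iglc3, had 52.2, 0 and 26.9 CPM in CD127hi and 1.98, 0 and 7.04 CPM in CD127-/lo Tregs (log2 fold change 3.14, standard error 0.73, adjusted p = 0.0340), and its level is uncertain because reads that fit both genes were not counted. Leaving out CD127hi replicate 1 or CD127-/lo replicate 1 or 2 ended its call, with adjusted p between 0.108 and 0.387. Siglecg (ENSMUSG00000030468, chromosome 7 from 43408204 to 43418358), an inhibitory lectin of B cells, had 5.31, 0.612 and 0 CPM in CD127hi and no read in CD127-/lo Tregs, at least 2.38-fold higher (adjusted p = 0.0468). Without CD127hi replicate 1 or any of the CD127-/lo libraries it was not called, with adjusted p from 0.208 to 0.798. In these 4 genes CD127hi replicate 1 or 3 had the highest value and replicate 2 was at or near 0.

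A second pattern was seen in Ly86, Mef2c and Serpinb1a, which were read in each CD127hi library. Ly86 (ENSMUSG00000021423, chromosome 13 from 37345208 to 37419036), the MD-1 protein that binds the receptor RP105 on B cells and myeloid cells, had 0.849, 8.88 and 6.08 CPM in CD127hi and no read in CD127-/lo Tregs, at least 6.37-fold higher (adjusted p = 0.00252). Mef2c (ENSMUSG00000005583, chromosome 13 from 83504034 to 83667080), a transcription factor of B cell and myeloid development, had 2.76, 10.4 and 6.66 CPM in CD127hi and 0, 0 and 0.293 CPM in CD127-/lo Tregs, a ratio of 66.9 (95% counting interval 11.6 to 2679) (adjusted p = 0.00144). Serpinb1a (ENSMUSG00000044734, chromosome 13 from 32842092 to 32851185), an inhibitor of neutrophil serine proteases, had 12.5, 54.8 and 29.8 CPM in CD127hi and no read in CD127-/lo Tregs, at least 39.1-fold higher (adjusted p = 0.000302). In all 3 genes replicate 2 or 3 was the highest CD127hi library, unlike in Ms4a1. SP/naive Tregs had 9.16 ± 4.597 CPM of Serpinb1a (SD, n = 3) with reads in each library, graft Tregs had none, and CD45+CD4- cells had 221 ± 47.8 CPM. All 3 genes stayed called whichever of the 6 libraries was left out. Ly86 lost its call with DESeq2 (adjusted p = 0.0712), the compared libraries alone (0.345), the spleen and graft libraries (0.108) and the covariate of read pairs outside genes (0.635). Mef2c lost it with DESeq2 (adjusted p = 0.0564), the compared libraries (0.411) and the covariate (0.566), and Serpinb1a with the covariate (adjusted p = 0.270). With the stricter filter on low counts all 3 genes lost their calls (adjusted p = 0.606 for Ly86, 0.5655 for Mef2c and 0.428 for Serpinb1a).

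Of the 15 genes called higher, 13 had a higher mean in CD45+CD4- spleen cells than in CD127hi Tregs, and 10 a mean over 10 times as high, against 46.1% and 14.8% of all genes tested. The marker lists of other cell types were therefore read in every library. Of the 14 B cell markers, 2 were called higher (Ms4a1 and Cr2) and none lower (0.0592% and 0.0316% of all genes tested), with a median log2 fold change of 2.82, or 1.54 with genes at the limit of detection set to their bound. In 1 of the 14 the CD127hi libraries lay above without overlap, near the 6.07% of all genes tested. Without CD127-/lo replicate 1, 3 were called and the median as fitted was 4.58. Their summed level was 137, 11.3 and 132 CPM in CD127hi and 52.3, 51.1 and 65.96 CPM in CD127-/lo Tregs, which was 1.24, 0.103 and 1.199% and 0.474, 0.463 and 0.598% of that in CD45+CD4- cells. The sums overlapped, since CD127hi replicate 2 was the lowest of the 6. Cd22, an inhibitory receptor of B cells, had 13.2, 3.06 and 0.579 CPM in CD127hi and 7.63, 26.9 and 23.2 CPM in CD127-/lo Tregs, the opposite direction to Ms4a1 (log2 fold change -1.75, adjusted p = 0.667). Pax5, a B cell factor named after its values were seen, had at most 1.22 CPM in CD127hi Tregs and was at 0 in CD127-/lo Tregs. Cd79a had 15.5, 2.75 and 12.2 CPM in CD127hi and 5.09, 0 and 0 CPM in CD127-/lo Tregs (adjusted p = 0.486, or 0.0183 with a log2 fold change of 7.88 without CD127-/lo replicate 1) and Cd79b 1.91, 1.22 and 56.4 CPM in CD127hi and 27.97, 22.6 and 42.2 CPM in CD127-/lo Tregs (adjusted p = 0.881). The number of B cell markers without a read was 3, 4 and 5 in the CD127hi and 7, 9 and 11 in the CD127-/lo libraries. Over all 25347 genes tested it was 10943, 9276 and 11224 in CD127hi and 12797, 11737 and 12950 in CD127-/lo libraries, so that genes without a read were fewer in each CD127hi library overall. Cells of another type and RNA taken up or left over in the sort cannot be told apart from transcripts of the Tregs in bulk libraries, nor can fewer cells of a type be told apart from less RNA per cell, and the part of such cells in the calls was not tested.

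**Figure D2:**
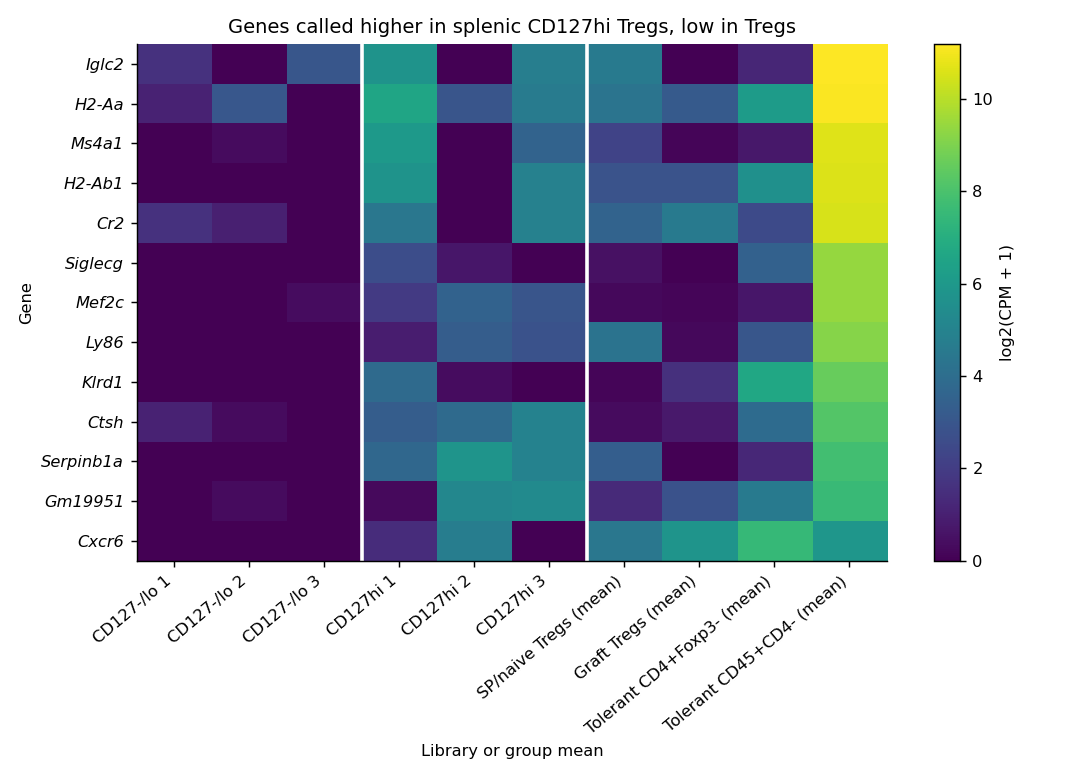
Log2(CPM + 1) (colour) of the 13 genes called higher in splenic CD127hi Tregs other than Il7r and Malat1 (rows), in the 6 libraries and as means of 3 libraries in SP/naive Tregs, graft Tregs, CD4+Foxp3- and CD45+CD4- cells of tolerant mice (columns). No CD127-/lo library exceeds 7.30 CPM, CD127hi replicate 2 is at 0 for Iglc2, Ms4a1, H2-Ab1 and Cr2, and the CD45+CD4- column is the highest for each gene but Cxcr6.

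Markers of other cell types were read in the same way, beside a share of 0.0592% called higher among all genes tested. Of 6 immunoglobulin constant regions, 1 was called (Iglc2). Ighm had 939, 1203 and 1183 CPM in CD127hi and 1499, 1442 and 1429.7 CPM in CD127-/lo Tregs, each CD127hi library below each CD127-/lo library, while Ighd, spliced from the same primary transcript as Ighm, had 117, 127 and 164 CPM in CD127hi and 38.7, 57.9 and 52.8 CPM in CD127-/lo Tregs, each CD127hi library above, and neither passed the test (adjusted p = 0.778 and 0.448). Of 18 markers of macrophages, monocytes and dendritic cells, none was called (lowest adjusted p 0.448), although 6 (33.3%) had CD127hi above and 1 below, against 6.07% and 4.53% of all genes tested, with a median of 1.90 (1.38 with bounds). Of the 9 that reached 10 CPM, 4 lay above and 1 below, against 10.9% and 10.7%. Their summed level was 508, 540.2 and 596 CPM in CD127hi and 646, 269.7 and 332 CPM in CD127-/lo Tregs, and CD127-/lo replicate 1 was the highest of the 6. Of 10 markers of CD8 T and NK cells, 1 was called higher (Klrd1), and the summed level was 103, 125 and 57.9 CPM in CD127hi and 212, 96.6 and 133 CPM in CD127-/lo Tregs. Nkg7, a granule protein of cytotoxic cells, had 51.8, 106 and 0 CPM in CD127hi and 159.9, 61.4 and 95.6 CPM in CD127-/lo Tregs (adjusted p = 0.778), and Cd8b1, the β chain of CD8, had 6.79, 0 and 10.4 CPM in CD127hi and 26.3, 14.1 and 21.4 CPM in CD127-/lo Tregs (adjusted p = 0.778), while its partner Cd8a, named after its values were seen, was at 0 in all 6 libraries. Haemoglobin genes were high in replicate 3 of both fractions, with sums of the erythroid and platelet list of 938 and 573 CPM against at most 6.78 CPM in the other 4 libraries. None of the 6 markers of Foxp3- conventional T cells was called, and their sums were 112, 119.7 and 50.7 CPM in CD127hi and 135, 63.9 and 91.2 CPM in CD127-/lo Tregs.

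Cxcr6 and Klrd1 are receptors of effector and tissue T cells and of NK cells. Cxcr6 (ENSMUSG00000048521, chromosome 9 from 123806475 to 123811760), the receptor of CXCL16, had 1.698, 25.4 and 0 CPM in CD127hi and no read in CD127-/lo Tregs, at least 10.9-fold higher (adjusted p = 0.00689). Most reads lay in CD127hi replicate 2, without which the adjusted p was 0.507, and it lay between 0.0685 and 0.108 without single CD127-/lo libraries. SP/naive Tregs had 20.6 ± 10.3 CPM and graft Tregs 54.9 ± 51.5 CPM (SD, n = 3), so that both had reads of it in each library. Klrd1 (ENSMUSG00000030165, chromosome 6 from 129591782 to 129598775), the CD94 chain of NKG2 receptors, had 13.8, 0.306 and 0 CPM and no read in CD127-/lo Tregs, at least 5.68-fold higher (adjusted p = 0.00252), and rested on CD127hi replicate 1, without which the adjusted p was 0.798. The lincRNA Gm19951 (ENSMUSG00000113136, chromosome 12 from 99643093 to 99647221) had 0.212, 34.9 and 39.7 CPM in CD127hi and 0, 0.252 and 0 CPM in CD127-/lo Tregs, a ratio of 241 (95% counting interval 42.8 to 9549) (adjusted p = 0.00827). CD127hi replicates 2 and 3 carried its reads but for 1 read pair, and it was not called without CD127-/lo replicate 1 (adjusted p = 0.162) or replicate 3 (adjusted p = 0.130).

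Of the 8 genes called lower, 6 were read at over 100 CPM in every library. The CD3 chains carry the signal of the T cell receptor into the cell. Cd3d (ENSMUSG00000032094, chromosome 9 from 44981786 to 44987339), the δ chain, had 997, 1107 and 791 CPM in CD127hi and 3122, 2189 and 2109.8 CPM in CD127-/lo Tregs (log2 fold change -1.36, standard error 0.29, adjusted p = 0.00834). Cd3g (ENSMUSG00000002033, chromosome 9 from 44969572 to 44980431), the γ chain, had 1017, 1307 and 827 CPM in CD127hi and 3973, 2299 and 2199 CPM in CD127-/lo Tregs (log2 fold change -1.43, standard error 0.31, adjusted p = 0.0107). Each CD127hi library lay below each CD127-/lo library in both genes. They lie head to head on chromosome 9, Cd3g on the minus strand and Cd3d on the plus strand, with 1355 bases between their starts. Another chain of this cluster, Cd3e, had a mean of 353 against 437 CPM, with overlapping fractions (log2 fold change -0.31, adjusted p = 0.968), and was named after its values were seen. Among the 14 genes of the receptor complex and its kinases, 2 were called lower and none higher (0.0316% and 0.0592% of all genes tested). In 5 CD127hi lay below and in 1 above (10.7% and 10.9% of all genes of at least 10 CPM, a level that all 14 reached), and the median was -0.41 (-0.23 without CD127-/lo replicate 1, with no gene called). Trbc1 and Trbc2, the constant regions of the receptor's β chain, had log2 fold changes of -0.55 and -0.68 (adjusted p = 0.752 and 0.590).

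Cd2 (ENSMUSG00000027863, chromosome 3 from 101275899 to 101287939), an adhesion receptor that binds CD48 in mice, had 563, 409 and 146 CPM in CD127hi and 2065, 903 and 1166 CPM in CD127-/lo Tregs (log2 fold change -1.89, standard error 0.43, adjusted p = 0.0247). Arhgdib (ENSMUSG00000030220, chromosome 6 from 136923655 to 136941899), a regulator of small GTPases in blood cells, had 939, 1239.6 and 766 CPM in CD127hi and 3899, 1477 and 2389.5 CPM in CD127-/lo Tregs (log2 fold change -1.40, standard error 0.30, adjusted p = 0.00812). Pfn1 (ENSMUSG00000018293, chromosome 11 from 70651850 to 70654644), the actin-binding protein profilin, had 481, 394 and 419 CPM in CD127hi and 2653, 799 and 844 CPM in CD127-/lo Tregs (log2 fold change -1.73, standard error 0.41, adjusted p = 0.0434). In each of them CD127-/lo replicate 1 was the highest library, and the other 2 CD127-/lo libraries still lay above the CD127hi libraries. The ferritin light chain Ftl1 (ENSMUSG00000050708, chromosome 7 from 45457944 to 45459884), which stores iron, had 404, 436 and 266 CPM in CD127hi and 2171, 657 and 769.5 CPM in CD127-/lo Tregs (log2 fold change -1.70, standard error 0.39, adjusted p = 0.0221) and has processed copies elsewhere in the genome, so that its level is uncertain. Without CD127-/lo replicate 1 none of these 6 genes was called, with adjusted p between 0.216 for Cd3d and 0.934 for Pfn1 and log2 fold changes of -1.16 for Cd3d and -0.93 for Pfn1. Without CD127hi replicate 3 the adjusted p was 0.0857 for Cd3d, 0.0951 for Cd3g, 0.354 for Cd2, 0.0610 for Arhgdib, 0.236 for Ftl1 and 0.166 for Pfn1, and Pfn1 was also lost without CD127hi replicate 1 or 2. By the likelihood ratio test (adjusted p from 0.477 to 0.576) and by DESeq2 (adjusted p from 0.0930 to 0.250) these 6 genes did not pass.

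Pole3 (ENSMUSG00000028394, chromosome 4 from 62522649 to 62525068), a histone-fold subunit of DNA polymerase ε, had no read in CD127hi Tregs and 51.1, 18.9 and 26.7 CPM in CD127-/lo Tregs, at least 39.9-fold lower (adjusted p = 0.0340). SP/naive Tregs had 8.29 ± 5.45 CPM and graft Tregs 9.43 ± 8.98 CPM (SD, n = 3). The lncRNA Ifngas1 (ENSMUSG00000112230, chromosome 10 from 118502035 to 118556525), which lies beside the interferon γ gene, had 0.212, 0 and 0 CPM in CD127hi and 7.35, 27.4 and 14.4 CPM in CD127-/lo Tregs. A single read pair stood against 184 in CD127-/lo Tregs, a ratio of 193 (95% counting interval 34.1 to 7646) in favour of the latter (adjusted p = 0.0173). SP/naive Tregs had 12.8 ± 1.59 CPM of Ifngas1. Ifng itself had 17.8, 44.99 and 0 CPM in CD127hi and 11.9, 7.297 and 0.293 CPM in CD127-/lo Tregs, with overlapping fractions (adjusted p = 0.779). Both calls were lost without any single CD127hi library and without CD127-/lo replicate 1 (Pole3) or 2 (Ifngas1), with adjusted p from 0.0582 to 0.226.

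Malat1 (ENSMUSG00000092341, chromosome 19 from 5795690 to 5802672), an abundant noncoding RNA of the nucleus, had 23208, 19264 and 15553 CPM in CD127hi and 5803, 9628 and 13397 CPM in CD127-/lo Tregs (log2 fold change 1.01, standard error 0.15, adjusted p = 6.19e-07). CD127-/lo replicate 3 came close to CD127hi replicate 3, and the fractions did not overlap. Neat1, another nuclear noncoding RNA, had 485, 557 and 563 CPM in CD127hi and 125, 259 and 291 CPM in CD127-/lo Tregs, likewise without overlap, and did not pass the test (log2 fold change 1.25, adjusted p = 0.454). Both lay higher in SP/naive Tregs than in CD127-/lo Tregs on average, with 47593 ± 25795 CPM of Malat1 and 440.5 ± 196 CPM of Neat1 (SD, n = 3). Leaving out each library in turn gave log2 fold changes of Malat1 from 0.75 to 1.33, each with a call, but the adjusted p was 0.713 with edgeR's likelihood ratio test, 0.438 with DESeq2 and 0.295 with the 24 spleen and graft libraries alone.

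Malat1, with an annotated transcript of 6983 bases, was called higher and the short transcripts of Ftl1 (968 bases), Cd2 (1153) and Arhgdib (1193) were called lower, but the called genes did not separate by length. The longest annotated transcripts of genes called higher ran from 606 bases (Iglc2) to that of Malat1, with 919 for Klrd1 and 1212 for H2-Ab1, and those of genes called lower from that of Ftl1 to 2539 bases (Cd3g). Over the 8289 genes of at least 10 CPM with an annotated length, the median log2 fold change was -0.63 for the 450 genes whose longest transcript is under 1000 bases, -0.47 for 1315 genes from 1000 to under 2000, 0.06 for 3242 from 2000 to under 4000 and 0.33 for the 3282 genes from 4000 bases. Across these genes, which are not independent and share the 6 libraries, the log2 fold change and log2 length correlated with Pearson's r = 0.30 and Spearman's coefficient = 0.35 (0.19 and 0.23 without CD127-/lo replicate 1). Without CD127-/lo replicate 1 the medians were -0.42, -0.28, 0.04 and 0.20. With the share of read pairs outside genes as a covariate, a model chosen after seeing the data, they were -0.13, -0.15, 0.03 and 0.19, and 2 genes were called (H2-Ab1 and Ms4a1). In that model the log2 fold changes of the abundant genes called lower were -0.77 for Cd3d, -0.58 for Cd3g, -0.67 for Cd2, -0.45 for Arhgdib, -0.90 for Ftl1 and -0.58 for Pfn1. That share did not overlap between the fractions, so library composition and CD127 cannot be told apart in full here, and the part of transcript length in the calls was not tested.

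**Figure D3:**
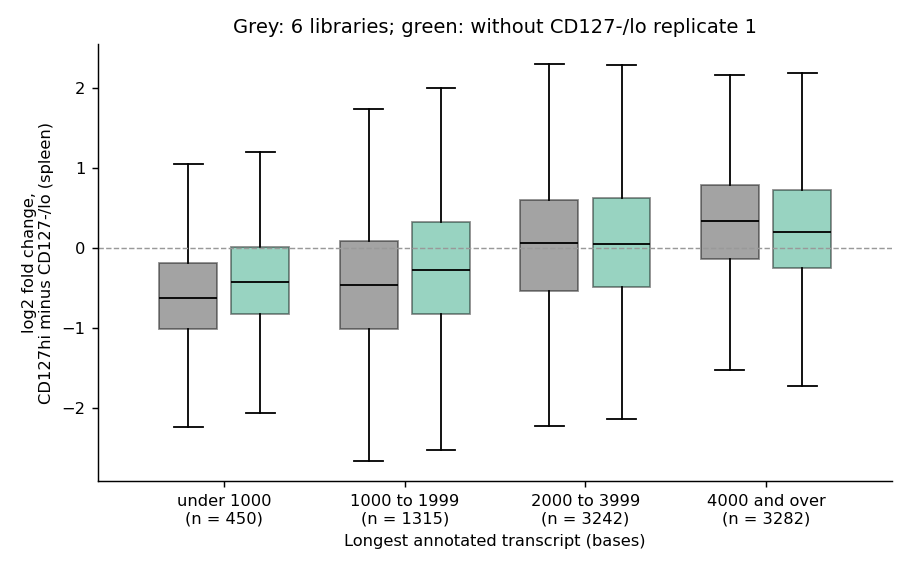
Log2 fold change of CD127hi against CD127-/lo splenic Tregs (y axis) by longest annotated transcript (x axis) for 8289 genes of at least 10 CPM, with boxes for the quartiles, a line for the median and whiskers up to 1.5 times the box height. The median climbs from -0.63 in the shortest to 0.33 in the longest class with all 6 libraries (grey) and from -0.42 to 0.20 without CD127-/lo replicate 1 (green).

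Genes of Treg identity were not called. Of the 12, none passed the test (lowest adjusted p 0.485), 1 had CD127hi above (Foxp3) and 3 below (10.9% and 10.7% of all genes of at least 10 CPM, which all 12 reached), and the median was -0.55 (-0.43 without CD127-/lo replicate 1). Izumo1r, the folate receptor 4 of Tregs, had 351, 389 and 349.7 CPM in CD127hi and 916, 626 and 699 CPM in CD127-/lo Tregs, each CD127hi library below (log2 fold change -1.04, adjusted p = 0.682). Ctla4, which strips CD28 ligands from antigen-presenting cells, had 805, 503 and 565 CPM in CD127hi and 1115, 846 and 937 CPM in CD127-/lo Tregs, also without overlap (log2 fold change -0.63, adjusted p = 0.778). Of the 18 genes of the common γ chain receptors and STAT5, Il7r, the gene of the sort, was the only call (0.0592% of all genes tested were called higher). Il2rg, the common γ chain, had 541, 332 and 263 CPM in CD127hi and 696, 559 and 595 CPM in CD127-/lo Tregs, below in each CD127hi library, and Jak1, a kinase bound to CD127, had 1115, 982 and 1145 CPM in CD127hi and 691, 794 and 805 CPM in CD127-/lo Tregs, above in each, neither past the test (adjusted p = 0.778 and 0.778). Mcl1, a survival protein downstream of IL-7, differed little (log2 fold change 0.13, adjusted p = 1).

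Among 15 transcription factors of effector and tissue Tregs, Mef2c was the only call (0.0592% of all genes tested were called higher), and the median was 0.76. Gata3, a factor of Th2 cells and tissue Tregs, had 281, 224 and 248 CPM in CD127hi and 132, 84.5 and 111 CPM in CD127-/lo Tregs, and Rora, a nuclear receptor of tissue lymphocytes, had 404, 233 and 238 CPM in CD127hi and 100.3, 137 and 152 CPM in CD127-/lo Tregs. CD127hi libraries were above in both, and neither passed the test (log2 fold changes 1.20 and 1.17, adjusted p = 0.778 and 0.778). Id2, which restrains E proteins in effector cells, overlapped between the fractions (log2 fold change 0.71), and Maf had 669.5, 836 and 1004 CPM in CD127hi and 697, 1072 and 930.5 CPM in CD127-/lo Tregs (log2 fold change -0.11). No gene of 13 for resting cells and lymphoid homing was called, with a median of 0.06. Tcf7, a transcription factor of naive and memory T cells, had a log2 fold change of 0.22, with overlapping fractions.

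Of the 13 chemokine receptors of tissue homing, Cxcr6 was called higher (0.0592% of all genes tested) and 2 had CD127hi above, both among the 9 of at least 10 CPM (10.9% of all genes of that level), with a median of 1.07 (1.25 with bounds, 0.73 without CD127-/lo replicate 1). Ccr2, the receptor of CCL2, had 158, 284 and 179 CPM in CD127hi and 24.3, 2.52 and 98.5 CPM in CD127-/lo Tregs, without overlap and without passing the test (log2 fold change 2.31, adjusted p = 0.466). With a library left out its log2 fold change lay between 1.75 and 3.95, the latter without CD127-/lo replicate 3, and it was not called. Of 12 integrins and adhesion molecules none was called, 3 had CD127hi above and none below (10.9% and 10.7% of all genes of at least 10 CPM, which 11 of the 12 reached), and the median was 0.68. Cd44, the hyaluronan receptor of activated and memory T cells, had 310.1, 399 and 435 CPM in CD127hi and 149, 131 and 191 CPM in CD127-/lo Tregs (log2 fold change 1.28, adjusted p = 0.654). Itgae (CD103), the αE chain that binds E-cadherin, had 115, 194 and 247 CPM in CD127hi and 22.6, 69.7 and 25.5 CPM in CD127-/lo Tregs (log2 fold change 2.24, adjusted p = 0.507) and was named after its values were seen. For both genes the lowest CD127hi library exceeded the highest CD127-/lo library.

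The receptors of alarmins, cytokines released by damaged tissue, held large differences that did not pass the test. Il1rl1 (ST2), the receptor of IL-33, had 147, 114 and 237 CPM in CD127hi and 7.35, 4.03 and 16.7 CPM in CD127-/lo Tregs, each CD127hi library far above each CD127-/lo library (log2 fold change 4.15, standard error 1.15, adjusted p = 0.209). With the compared libraries alone Il1rl1 was called (adjusted p = 0.00132). Graft Tregs had 244 ± 200.2 CPM and SP/naive Tregs 27.5 ± 14.6 CPM (SD, n = 3). Il18r1, the IL-18 receptor chain, had 120.4, 221 and 265 CPM in CD127hi and 35.03, 45.8 and 52.8 CPM in CD127-/lo Tregs, again without overlap (log2 fold change 2.18, adjusted p = 0.458, or 0.0427 with the compared libraries alone), while its partner Il18rap overlapped (log2 fold change 1.89, adjusted p = 0.778). Il1r2, the decoy receptor of IL-1, had 40.1, 7.04 and 0.289 CPM in CD127hi and 210.2, 225 and 69.5 CPM in CD127-/lo Tregs, each CD127hi library below (log2 fold change -3.40, adjusted p = 0.448). Of the 6 members, 2 had CD127hi above and 1 below, all among the 5 of at least 10 CPM (10.9% and 10.7% of all genes of that level), and the median was 2.03.

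No coinhibitory receptor of 10 was called (median -0.60, or -0.25 without CD127-/lo replicate 1), with 2 above and 2 below. Of the 8 that reached 10 CPM, 1 lay above and 2 below, against 10.9% and 10.7% of all genes of that level. Klrg1, a receptor of terminally differentiated Tregs and effector cells, had 144, 129 and 187 CPM in CD127hi and 84.5, 14.3 and 31.1 CPM in CD127-/lo Tregs (log2 fold change 1.83, adjusted p = 0.778), and Cd200 had 61.6, 87.8 and 107 CPM in CD127hi and 183, 149 and 151 CPM in CD127-/lo Tregs (log2 fold change -0.91, adjusted p = 0.778). The former lay above and the latter below in each CD127hi library. No costimulatory receptor of 10 was called (median -0.08). Icos had 624, 714 and 482 CPM in CD127hi and 1078, 1016 and 852 CPM in CD127-/lo Tregs, below in each CD127hi library (log2 fold change -0.69, adjusted p = 0.778), and Tnfrsf4 (OX40) had 1001, 542 and 479 CPM in CD127hi and 2166, 990.4 and 1246 CPM in CD127-/lo Tregs, with overlap of CD127hi replicate 1 and CD127-/lo replicate 2 (log2 fold change -1.12, adjusted p = 0.476). Tnfrsf25 (DR3), the receptor of TL1A, had 132, 146 and 98.7 CPM in CD127hi and 39.3, 23.4 and 39.6 CPM in CD127-/lo Tregs (log2 fold change 1.88, adjusted p = 0.727) and was named after its values were seen. Of 16 suppressive and secreted effectors none was called (median 0.29, or 0.75 without CD127-/lo replicate 1). Lgals1, galectin 1, had 514, 605 and 559 CPM in CD127hi and 865, 787 and 896 CPM in CD127-/lo Tregs, below in each CD127hi library (log2 fold change -0.60, adjusted p = 0.778), and Nt5e (CD73) and Penk overlapped.

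Genes that answer to interferons were not called. Of the 21 genes of the interferon γ response, 7 (33.3%) had CD127hi above and 5 (23.8%) below, and of the 19 that reached 10 CPM, 7 lay above and 4 below, against 10.9% and 10.7% of all genes of that level, with a median of 0.40 and a lowest adjusted p of 0.525. Gbp4, a guanylate-binding protein, had 719, 545 and 743 CPM in CD127hi and 334, 418 and 309 CPM in CD127-/lo Tregs, above in each CD127hi library, and Psmb8, a catalytic subunit of the immunoproteasome, had 338, 293 and 269 CPM in CD127hi and 969, 471 and 458 CPM in CD127-/lo Tregs, below in each (adjusted p = 0.691 and 0.525). Ifngr1, a chain of the interferon γ receptor, lay above in each CD127hi library with a log2 fold change of 0.60 (adjusted p = 0.778). Of 16 genes stimulated by type I interferon, none was without overlap, and the median was -0.13 (0.27 without CD127-/lo replicate 1). Ifi27l2a had 2085, 2343 and 2455 CPM in CD127hi and 6533, 2372 and 2635 CPM in CD127-/lo Tregs, with CD127-/lo replicate 1 far above the other 5 libraries.

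Of 19 genes of cell cycle and DNA replication, none was called. The CD127hi libraries lay below in 6 and above in 1, against 4.53% and 6.07% of all genes tested, and below in 5 of the 17 members of at least 10 CPM, against 10.7% of all genes of that level, with a median of -1.19 (-1.13 without CD127-/lo replicate 1). Hmgb2, a chromatin protein of dividing cells, had 130.1, 163 and 274 CPM in CD127hi and 569, 450.4 and 381 CPM in CD127-/lo Tregs, and Pcna, the clamp of DNA polymerases, had 157, 236 and 138 CPM in CD127hi and 256, 291 and 268 CPM in CD127-/lo Tregs. Each CD127hi library lay below in both (adjusted p = 0.510 and 0.778). Ccnb2, cyclin B2, had 4.67, 0 and 0 CPM in CD127hi and 63.8, 73.2 and 32.2 CPM in CD127-/lo Tregs (log2 fold change -5.10, adjusted p = 0.448, named after its values were seen), while Top2a overlapped at -0.54. Without CD127hi replicate 1, the only CD127hi library with reads of Ccnb2, its log2 fold change was -10.33 and it was called (adjusted p = 0.0430). Of the 15 genes of glycolysis, 4 had CD127hi below and 1 above (median -0.16, or -0.07 without CD127-/lo replicate 1), and of the 14 that reached 10 CPM, 3 lay below and 1 above, against 10.7% and 10.9%. Gapdh had 76.8, 80.2 and 94.4 CPM in CD127hi and 333, 186 and 158 CPM in CD127-/lo Tregs (log2 fold change -1.43, adjusted p = 0.733). Immediate early and AP-1 genes (19 genes, median 0.63, or 0.41 without CD127-/lo replicate 1) and S100 proteins, galectins and activation genes (13 genes, median -0.17, or -0.01 without it) held no call either. Junb had 167, 102 and 194 CPM in CD127hi and 96.9, 87.6 and 63.3 CPM in CD127-/lo Tregs (log2 fold change 0.90, adjusted p = 0.778). Ahnak and Anxa2, named after their values were seen, lay apart in opposite directions, Ahnak at 437, 340.04 and 536 against 100.3, 179.7 and 231 CPM and Anxa2 at 28.4, 40.7 and 4.05 against 154, 117 and 269.7 CPM (adjusted p = 0.510 and 0.448). The 12 mitochondrially encoded genes tested had a median of -0.14 (0.25 without CD127-/lo replicate 1), and none was without overlap.

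**Figure D4:**
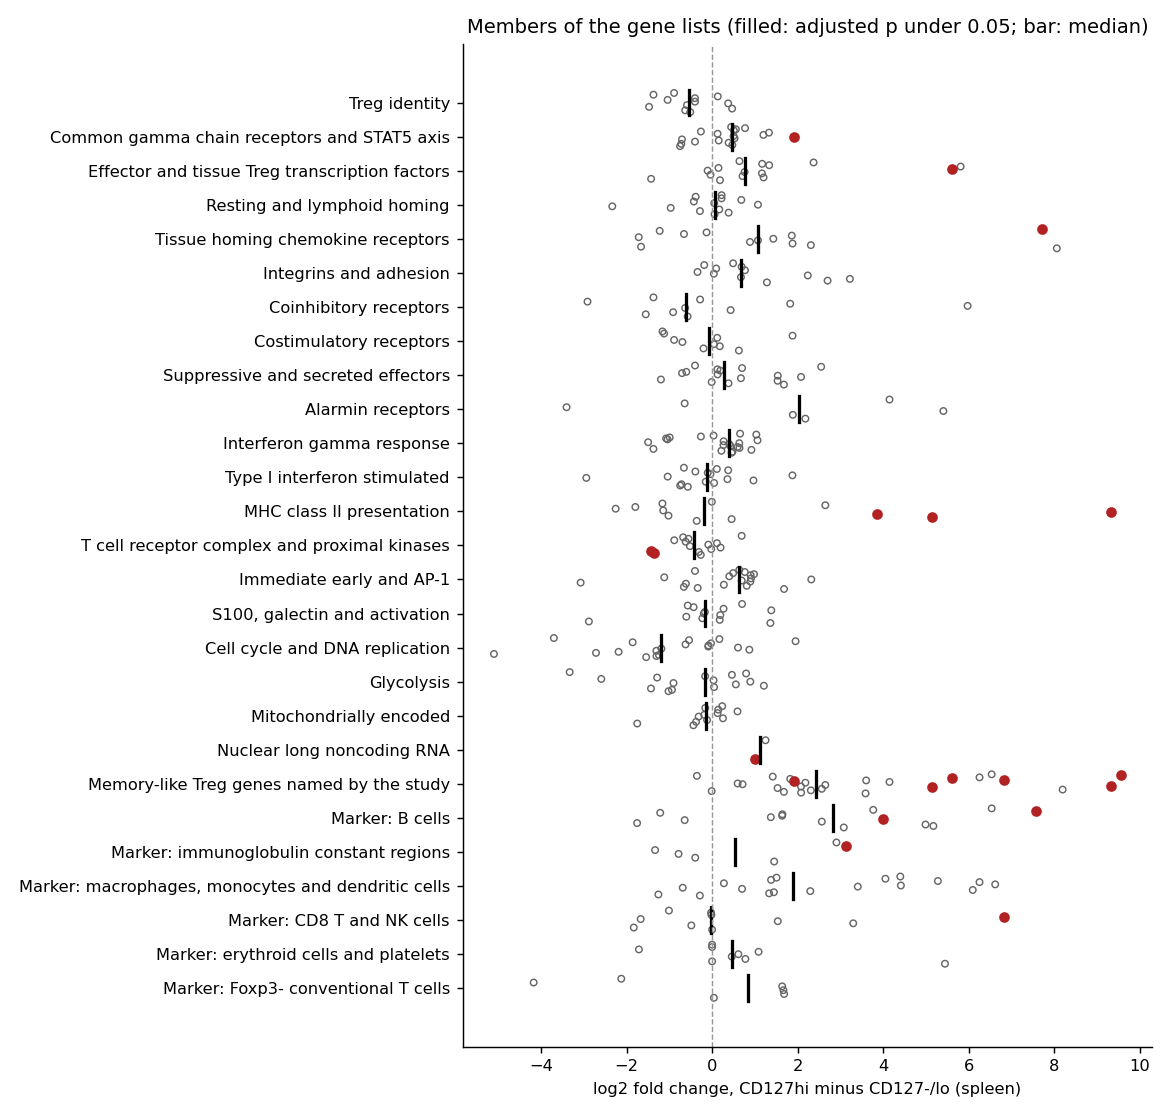
Log2 fold change of CD127hi against CD127-/lo splenic Tregs (x axis) for the tested members of 27 gene lists (y axis), with filled points for genes called at an adjusted p under 0.05 and a bar for the median of each list. Called genes appear in 10 of the lists, the medians of the B cell markers, the genes named by the study and the alarmin receptors are 2.82, 2.44 and 2.03 as fitted and 1.54, 2.28 and 2.03 with bounds, and the lowest median is that of the cell cycle at -1.19.

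The study names 26 genes for memory-like or tissue-like CD127hi Tregs. It compared splenic CD127hi, lymph node CD127hi and graft Tregs mainly with naive or CD127-/lo Tregs, and asked for an adjusted p under 0.05 in at least 1 comparison. A gene can therefore be named there without a difference in the comparison given here. Since the genes were chosen on these samples, they are not independent evidence of their direction. Of these 26 genes, 6 were called, all higher (Il7r, H2-Ab1, Ctsh, Mef2c, Klrd1 and Serpinb1a), 13 had CD127hi above and none below (6.07% and 4.53% of all genes tested), and the median was 2.44 (2.28 with bounds), while 15 were wide calls (unadjusted p under 0.01 and an absolute log2 fold change over 1.5), all higher. Of the 17 that reached 10 CPM, 9 lay above and none below, against 10.9% and 10.7% of all genes of that level. Over all genes tested, 0.0592% were called higher and 1.13% were higher wide calls, and Il7r, the gene of the sort, is one of the 26. Fgl2, a secreted suppressor of T cells, had 74.3, 159.8 and 257 CPM in CD127hi and 48.9, 47.3 and 19.9 CPM in CD127-/lo Tregs (log2 fold change 2.08, adjusted p = 0.601). Adam8, a metalloprotease, had 26.96, 58.8 and 106 CPM in CD127hi and 1.41, 15.1 and 28.7 CPM in CD127-/lo Tregs (log2 fold change 2.08, adjusted p = 0.778). CD127hi libraries lay above in Fgl2 and overlapped with CD127-/lo replicate 3 in Adam8. Adam12, another metalloprotease, had 15.5, 60.3 and 47.8 CPM in CD127hi and 0.848, 0.252 and 9.09 CPM in CD127-/lo Tregs, and Mrc1, the mannose receptor of macrophages, had 0.637, 13.2 and 35.6 CPM in CD127hi and 0, 0.503 and 0 CPM in CD127-/lo Tregs, both above in each CD127hi library and neither called (adjusted p = 0.778 and 0.480). For Mrc1 the closest libraries, at 0.637 and 0.503 CPM, held a few read pairs each, so the fractions are hardly apart. Tnfrsf13c, the BAFF receptor of B cells, had 5.94, 0.306 and 5.5002 CPM and no read in CD127-/lo Tregs, at least 4.73-fold higher (adjusted p = 0.209). Cd36, a scavenger receptor, had 35.4, 0 and 2.03 CPM and no read in CD127-/lo Tregs (adjusted p = 0.327). Ccl5 and Rgs2 had log2 fold changes of -0.01 and -0.36, and Anxa1, Ctla2a, Kctd12 and Nebl lay at 1.68, 1.53, 3.60 and 1.42 with overlapping fractions.

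By that wider rule, which the study also used, 452 genes were called, 287 higher (1.13%) and 165 lower (0.651%), of which 87 and 83 had fractions without overlap. The excess of higher calls turned into one of lower calls without CD127-/lo replicate 1 (90 higher and 150 lower), replicate 2 (76 higher and 181 lower) or replicate 3 (81 higher and 160 lower), with the compared libraries alone (108 higher and 169 lower) and with the covariate of read pairs outside genes (122 higher and 221 lower). The rule has no correction for the number of genes. Among those without overlap and with at least 10 CPM on average in the higher fraction, 32 higher and 62 lower, the 10 with the largest log2 fold change per direction were all at 0 or at 1 read pair in the other fraction. Higher were Serpinb1a, 1700008J07Rik, Insm2, Jade3, Ago4, Ube2e2, Fmnl2, Gm15337, Il1b and Basp1. Jade3, part of a histone acetyltransferase complex, had 14.9, 9.79 and 19.4 CPM, at least 17.7-fold higher, and Fmnl2, an actin nucleator, had 18.7, 7.35 and 11.3 CPM, at least 15.04-fold higher, both with reads in each CD127hi library. In contrast, Ago4, an Argonaute protein, had 0.212, 0.612 and 42.8 CPM, and Il1b, the cytokine IL-1β, had 29.5, 0.612 and 0.289 CPM, so that 1 library carried the level. Lower were Pole3, Zbtb33, Spata24, Gm10226, Tbc1d19, Zpbp, Ascl2, Trav12-3, A930029G22Rik and Gm13546. Zbtb33 (Kaiso), a repressor that binds methylated DNA, had 18.1, 22.9 and 0.879 CPM in CD127-/lo and none in CD127hi Tregs, at least 17.3-fold lower, and the T cell receptor segment Trav12-3 had 4.803, 9.81 and 15.8 CPM against none, at least 12.6-fold lower. Of these 20 genes, Serpinb1a and Pole3 alone passed the adjusted test of the main model. With DESeq2 all passed except Ascl2, Basp1, Gm10226, Gm15337, Il1b, Insm2 and Trav12-3 (adjusted p from 0.0606 to 0.255). Gm13546 also passed with the likelihood ratio test (adjusted p = 0.0461) and 1700008J07Rik with the compared libraries alone (adjusted p = 0.0469).

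The same sort of lymph node Tregs shared no library with the splenic comparison, but may share animals with it, so that the 2 comparisons are not independent in their mice. It was sequenced on another instrument, a MiSeq against a NextSeq 500, so that organ and instrument cannot be told apart between the comparisons. Il7r had 635, 476 and 678 CPM in DLN/CD127hi and 265, 784 and 516 CPM in DLN/CD127-/lo Tregs, with overlapping fractions (log2 fold change 0.19, adjusted p = 0.972), so the transcript did not separate the labels there. In the lymph node 106 genes were called, 56 higher (0.221%) and 50 lower (0.197%). Of the 15 genes called higher in the spleen, 13 had a positive log2 fold change in the lymph node, and of the 8 called lower, 6 a negative one. Of the 23 genes, 7 were called in both organs. H2-Ab1, H2-Aa, Iglc2, Ly86, Mef2c and Serpinb1a were higher in both, with lymph node log2 fold changes from 2.50 for H2-Aa to 5.89 for Ly86. Serpinb1a had 269.6, 14.2 and 7.26 CPM in DLN/CD127hi and 0.545, 5.97 and 0 CPM in DLN/CD127-/lo Tregs, and H2-Ab1 46.7, 404 and 365 against 1.64, 5.97 and 36.8 CPM, without overlap in either gene. The summed B cell markers there were 1126, 1075 and 343 CPM in DLN/CD127hi and 168, 523 and 158 CPM in DLN/CD127-/lo Tregs, with an overlap of CD127hi replicate 3 and CD127-/lo replicate 2, and their part in these calls was not tested.

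Malat1 was called in both organs in opposite directions. It had 43424, 35712 and 47794 CPM in DLN/CD127hi and 105854, 66735 and 66976 CPM in DLN/CD127-/lo Tregs, each CD127hi library below (log2 fold change -0.92, adjusted p = 7.72e-06), and the difference between the organs was 1.93 (adjusted p = 3.71e-13, interaction term of the same model). The difference kept its direction but was not called with the likelihood ratio test (adjusted p = 0.338), DESeq2 (adjusted p = 0.110) or the stricter filter (adjusted p = 0.145). This term was called for 30 genes (0.118%), and among the 23 genes of the spleen for Malat1, Ms4a1 and Ifngas1. Il7r was not among them (difference 1.72, adjusted p = 0.181). Cd3d and Cd3g had log2 fold changes of -0.32 and -0.27 in the lymph node (adjusted p = 0.764 and 0.817), and their difference from the spleen was not called (adjusted p = 0.450 and 0.406).

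**Figure D5:**
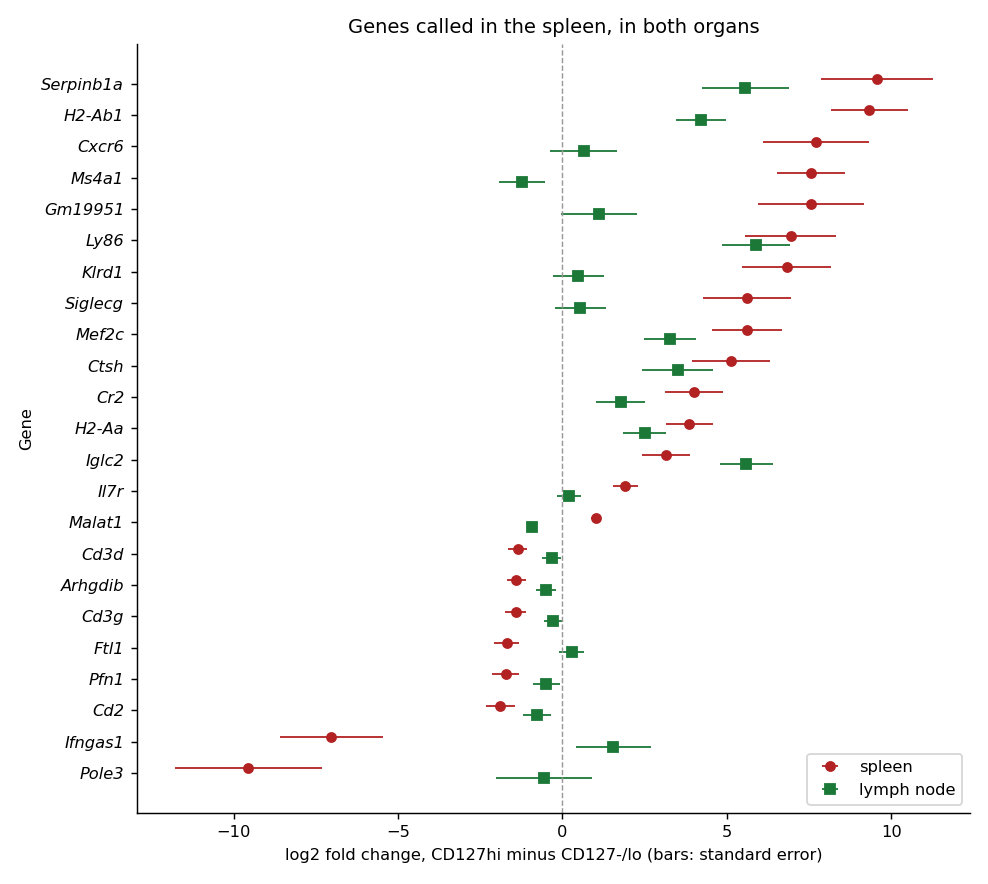
Log2 fold change of CD127hi against CD127-/lo Tregs (x axis) for the 23 genes called in the spleen (y axis), in spleen (red circles) and lymph node (green squares), with bars for the standard error worked out from the log2 fold change and the test statistic. Points and bars of genes without reads in one fraction depend on the prior count of the fit. Malat1 lies at 1.01 in the spleen and -0.92 in the lymph node, and Ms4a1 at 7.56 and -1.22.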

How the data were processed

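Bulk RNA-Seq libraries had been prepared from sorted cells by SMART-Seq v4 for low amounts of RNA and Nextera XT, which do not keep strand, and sequenced as read pairs. The authors trimmed reads with Trim Galore and aligned them with STAR to mm10 (GRCm38) with EGFP added. The deposited values were raw counts of read pairs per gene over both strands, with uniquely mapped reads only. The methods name HTSeq for the counting, while the layout of the deposited tables is that of STAR. The 4 totals of read pairs without a gene were left out of library sizes and used for mapping shares only (above).

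Analyses used R 4.3.3, edgeR 4.0.16, limma 3.58.1, DESeq2 1.42.0 and Python 3.11.15. The 25347 genes of 31054 that reached 1 CPM in any library entered 1 edgeR quasi-likelihood model with a mean for each of the 11 groups of 3 libraries, after TMM scaling, and p-values were adjusted by Benjamini-Hochberg over all genes tested. Log2 fold changes are those of the fit, and each standard error is the absolute log2 fold change divided by the square root of the test statistic. Gene positions came from GENCODE vM21, where 42 features had no symbol, and promoters from RefSeq. A fraction without a read was set to 3 counts per library for lower bounds, which compare the mean of the other fraction with this limit and do not cover the spread between libraries. An exact 2-sided permutation test of 3 libraries against 3 cannot give a p below 0.1 and was not used for single genes. Named were Foxp3, EGFP, Il7r, every DEG, up to 4 members with the highest mean CPM and the called members of each list, the genes the study names, the 10 largest wide calls per direction without overlap and with at least 10 CPM, and the genes marked above as named after their values were seen. The members, gene lists and tests were chosen with earlier results of these data known. Some genes of this rule are not reported here. Alternatives were the likelihood ratio test, DESeq2, RLE scaling, no filter and a filter of 10 counts in 3 libraries, fewer libraries in the model, a replicate block, leaving out each library, and a covariate added after seeing the data.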

Additional observations from a re-analysis of the deposited data

Results flagged for a closer look

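Among the named genes, 6 had a CD127hi difference that itself differed between spleen and lymph node in the interaction term of the model (by the quasi-likelihood test of edgeR, Benjamini-Hochberg adjusted), and each is given as the log2 fold change in the spleen minus that in the lymph node. Malat1 differed by 1.93 (standard error 0.21, adjusted p = 3.71e-13), with its values above. The immunoglobulin κ constant region Igkc differed by -4.85 (standard error 0.57, adjusted p = 2.51e-11). It had 77.7, 119 and 15.6 CPM in splenic CD127hi and 149.7, 103 and 113 CPM in splenic CD127-/lo Tregs, and 4607, 620.2 and 546 CPM in DLN/CD127hi and 15.8, 201 and 130.02 CPM in DLN/CD127-/lo Tregs, where DLN/CD127hi replicate 1 was far above the rest. Ms4a1, the CD20 gene of B cells, differed by 8.78 (standard error 1.25, adjusted p = 1.09e-07), with 64.1, 0 and 11.0004 CPM in splenic CD127hi and 0, 0.252 and 0 CPM in splenic CD127-/lo Tregs, and 13.6, 19.7 and 2.07 CPM in DLN/CD127hi and 1.09, 45.8 and 37.6 CPM in DLN/CD127-/lo Tregs. Its values depend on few libraries in each organ.

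Ifngas1 differed by -8.57 (standard error 1.92, adjusted p = 0.0156), with 0.212, 0 and 0 CPM in splenic CD127hi and 7.35, 27.4 and 14.4 CPM in splenic CD127-/lo Tregs, and 36.01, 55.95 and 165 CPM in DLN/CD127hi and 46.9, 0 and 40.9 CPM in DLN/CD127-/lo Tregs. Gm13546, a noncoding RNA annotated as antisense and counted without strand, differed by -13.79 (standard error 2.66, adjusted p = 0.00139), with 0, 0.306 and 0 CPM in splenic CD127hi and 16.4, 14.8 and 34.6 CPM in splenic CD127-/lo Tregs, and 37.96, 44.1 and 0 CPM in DLN/CD127hi and 0, 0.996 and 0 CPM in DLN/CD127-/lo Tregs. Insm2, a zinc finger gene, differed by 16.16 (standard error 3.91, adjusted p = 0.0434), with 10.6, 0.306 and 34.4 CPM in splenic CD127hi and 0, 0 and 0 CPM in splenic CD127-/lo Tregs, and 0, 0 and 0 CPM in DLN/CD127hi and 0, 26.9 and 0 CPM in DLN/CD127-/lo Tregs, so that 1 library of the lymph node held all its reads there. Without that library the difference was not called (adjusted p = 0.9998), nor without any single splenic CD127-/lo library (adjusted p from 0.135 to 0.174), SP/CD127hi replicate 3 (adjusted p = 0.0819), DLN/CD127hi replicate 1 (adjusted p = 0.0925) or replicate 3 (adjusted p = 0.0766), or with the stricter filter (adjusted p = 0.166). The stricter filter also ended the calls of Igkc (adjusted p = 0.0583), Ms4a1 (adjusted p = 0.124), Ifngas1 (adjusted p = 0.0745) and Malat1 (adjusted p = 0.145), and Ifngas1 was lost without several single libraries, with an adjusted p of at most 0.0638. With the compared libraries alone the calls of Ms4a1 (adjusted p = 0.267), Ifngas1 (adjusted p = 0.0600) and Insm2 (adjusted p = 0.0546) were lost. Igkc differed by -3.13 without DLN/CD127hi replicate 1. The size of the difference of Ms4a1, Ifngas1, Gm13546 and Insm2 depends on the prior count of the fit. Organ and sequencing instrument cannot be told apart in any of them, and the cause was not tested.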

How the results depend on the processing

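The 23 DEGs of the spleen became 10 with the likelihood ratio test (9 of the 23 among them), 91 with DESeq2 (10 among them), 35 without a filter, 6 with the 24 spleen and graft libraries, 2 with the covariate and 0 with at least 10 counts in at least 3 libraries, where 960 genes had an unadjusted p under 0.05 (edgeR's quasi-likelihood test). RLE scaling gave 24 and the compared libraries alone 27, of which 6 were higher and 21 lower and 7 among the 23. Leaving out each library gave 14 to 32. No gene was called under every alternative, and 8 of the 23, all higher, with every library left out in turn. Wide calls fell from 452 to 157 with the stricter filter (96 higher and 61 lower), 277 with the compared libraries (108 higher and 169 lower) and 240 to 399 with a library left out, with fewer higher than lower calls without any single CD127-/lo library (values above). The lymph node's 106 DEGs became 173, 730, 68 and 10 with the likelihood ratio test, DESeq2, the stricter filter and the compared libraries, and 115 to 232 with a library left out. The interaction's 30 became 70, 294, 54 without a filter, 11 with the stricter one, and 17 to 137. Of 1170 values of 78 named genes, 996 kept direction and side of the threshold, 146 lost and 25 gained a call, and 3 changed sign, Ifi27l2a (0.13) and mt-Co1 (0.044) with the covariate, and mt-Co1 with a library left out, where it lay between -0.64 and 0.030, positive without CD127-/lo replicate 1. Causes were not tested.

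Deviations of same-numbered libraries of the fractions correlated at 0.077, -0.007 and 0.042 in the spleen, and those of different numbers at -0.088 to 0.038. All were small and no label states a pairing, so the numbers were not taken to pair the libraries. Haemoglobin genes were high in replicate 3 of both fractions (above), and whether same-numbered libraries share a source was not tested. With the replicate number as a block, 35 genes were called in the spleen (22 of the 23) and 211 by the wider rule (84 higher and 127 lower). The block gave calls to Il1rl1 (adjusted p = 0.0329), Il1r2 (adjusted p = 0.0329) and H2-Eb1 (log2 fold change 3.59, adjusted p = 0.0359), and ended those of Pfn1 (adjusted p = 0.0750) and of the difference between organs in Insm2 (adjusted p = 0.368).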
